A study of Mus musculus with 6 samples.

Results

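Tendon cells and fibro-adipogenic progenitors, the connective tissue cells that lie between muscle fibres, were followed through 8 marker genes in gastrocnemius, a calf muscle, after loss of its nerve. The genes were the rows named Scx, Tnmd, Mkx, Pdgfra, Dpp4, Pi16, Cd34 and Ly6a, 8 of the 22187 gene rows of the table. Whole muscle of 6 male C57BL/6J mice aged 12 weeks was sequenced as bulk RNA, with 3 mice per group and no transgene or drug in either group. The denervated group had lost 2 mm of the sciatic nerve on the left side, and the muscle was taken 2 weeks later. The control group gave the left muscle of normal mice, so the operation itself cannot be told apart from the loss of the nerve. Levels are TPM, which is abundance per gene length, times 1 factor per library, and the depth of the libraries is unknown. Values are given as mean ± SD over the 3 mice of a group.

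Tendon joins muscle to bone, and its cells are recognised by the transcription factors scleraxis (Scx) and Mohawk (Mkx) and by the membrane glycoprotein tenomodulin (Tnmd). Scleraxis is a basic helix-loop-helix protein that binds E-box DNA together with an E protein, and tenomodulin is a known target of it in tendon. Fibro-adipogenic progenitors carry the platelet-derived growth factor receptor alpha (Pdgfra), can form fibroblasts or adipocytes, and support muscle regeneration. A subset around vessels and in connective tissue sheaths is known for the peptidase gene Dpp4 and for Pi16. Cd34 and Ly6a (the surface protein Sca-1) are used to sort these progenitors but are also expressed in endothelium, and Cd34 in resting satellite cells.

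Promoter sequences from RefSeq (GRCm38.p6) matched 5 of the 8 genes. They are shown for Tnmd, the tendon gene that was lower while Scx was higher, and for Pdgfra, the receptor gene that defines the progenitors. Each line is the 250 bases before the RefSeq start on the + strand, from chrX:133850758-133851007 for Tnmd and from chr5:75152001-75152250 for Pdgfra. Capitals mark an E-box, searched as CANNTG with N any base, a pattern that reads the same on both strands.
Tnmd: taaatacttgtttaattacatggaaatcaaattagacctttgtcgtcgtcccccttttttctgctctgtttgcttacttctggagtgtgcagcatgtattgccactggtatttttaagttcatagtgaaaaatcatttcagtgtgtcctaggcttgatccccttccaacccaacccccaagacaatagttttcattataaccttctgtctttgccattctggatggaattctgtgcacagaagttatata
Pdgfra: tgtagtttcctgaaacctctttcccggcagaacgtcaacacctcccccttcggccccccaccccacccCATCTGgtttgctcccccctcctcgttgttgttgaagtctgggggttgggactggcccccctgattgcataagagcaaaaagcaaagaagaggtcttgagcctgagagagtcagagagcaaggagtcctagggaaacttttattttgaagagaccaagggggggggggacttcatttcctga
The Tnmd window held 0 matches and the Pdgfra window held 1, which began 182 bases before the start. Of 32851 such windows 66.2% held at least 1 match, so either outcome is common. The Dpp4 window held 1 match, and the Pi16 and Cd34 windows 0.

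With values as deposited, Scx rose after denervation, Tnmd, Cd34 and Ly6a fell, and Pdgfra and Pi16 did not pass the test. Of the 8 genes, Dpp4 and Mkx were too low to be tested. The calls of Cd34, Ly6a, Pdgfra and Pi16 depended on the scaling of the libraries. A gene was tested where it reached 0.5 in at least 3 of the 6 libraries, and it was called at an adjusted p below 0.05 from limma, with Benjamini-Hochberg adjustment over the 12392 genes tested. Over all of these genes 22.9% were called higher and 24.3% lower, or 47.3% in all. The groups did not overlap for 57.5% of the genes tested, and for 4 of the 6 marker genes tested; Mkx, not tested, did not overlap either. With 6 tested markers of which 4 were called, the count cannot be set apart from that background, and the size and direction of each gene carry the description. In whole muscle, fewer cells of a type and less RNA per cell cannot be told apart.

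**Figure D1:**
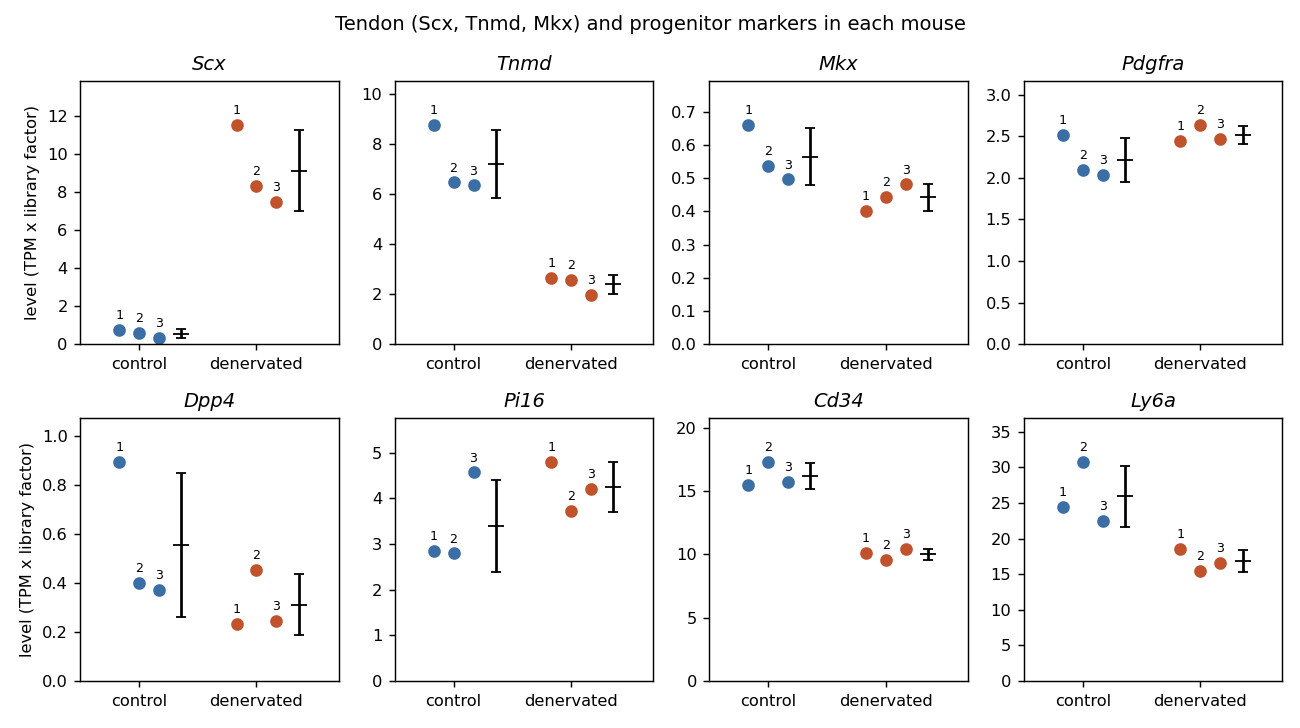
Level of each of the 8 marker genes (TPM multiplied by the library factor, linear axes from 0) in the 3 control and 3 denervated mice, with the replicate number above each point and the mean ± SD beside each group. Scx lies at 0.327 to 0.745 in controls and at 7.48 to 11.5 after denervation, whereas Tnmd, Cd34 and Ly6a lie lower after denervation without overlap.

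Scx, the tendon cell factor, rose 16.2-fold between group means and went from the level of Dpp4 to that of Cd34. Its levels were 0.745, 0.612 and 0.327 in controls 1 to 3 and 11.5, 8.33 and 7.48 in denervated mice 1 to 3. Every denervated mouse was above every control by a wide margin. On the scale log2(level + 1) the denervated mean exceeded the control mean by 2.68 (SE 0.169, limma adjusted p = 1.52e-05), which ranked 111 among the rises of 12392 genes. The added 1 understates the change of a gene that is low in controls. Scx reached the level filter through its 3 denervated values and 2 of its control values.

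Scx lies on chromosome 15 within the span of Bop1, a ribosome assembly gene on the other strand (GENCODE M21 on GRCm38). None of the 2007 exonic bases of Scx is shared with an exon of Bop1 (0 bases). No source used here gives the strandedness, so reads from unspliced Bop1 RNA cannot be told apart from Scx. Bop1, chosen after its values were seen, went from 5.08 ± 0.234 to 12.3 ± 0.613, a smaller rise of 2.42-fold between group means. The level of Scx divided by that of Bop1 was 0.153, 0.122 and 0.0613 in controls 1 to 3. In denervated mice 1 to 3 it was 0.889, 0.691 and 0.634. These levels do not measure unspliced Bop1 RNA, so its part in the Scx values was not tested.

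Tnmd, the membrane protein of mature tendon cells, fell 2.99-fold between group means while Scx rose. It stood at 8.76, 6.46 and 6.34 in controls 1 to 3 and at 2.66, 2.57 and 1.97 in denervated mice 1 to 3. The lowest control was above the highest denervated mouse. The log2 difference was -1.26 (SE 0.142, limma adjusted p = 0.000266), rank 423 among the falls. Without control 1, the highest control, it was -1.13.

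Mkx, a homeobox factor of tendon, lay at low levels on either side of the 0.5 used as the level filter. Its levels were 0.660, 0.537 and 0.496 in controls and 0.401, 0.443 and 0.481 in denervated mice. The groups did not overlap, but the lowest control and the highest denervated value lay close together. Only 2 of the 6 libraries reached 0.5, so Mkx was not tested; with no level filter its log2 difference of -0.12 had a limma adjusted p of 0.29. No direction is given for Mkx.

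Within each library the balance of Scx and Tnmd turned over. The plain ratio of their levels, in which the library factor cancels, was 0.0851, 0.0948 and 0.0516 in controls and 4.34, 3.24 and 3.80 in denervated mice. On the scale log2(level + 1) the ratio changed by 3.95, from -2.39 ± 0.154 to 1.56 ± 0.200. The exact two-sided permutation test gave p = 0.1, the smallest that 3 mice against 3 can give, and 0.2 after adjustment over the 6 ratios compared.

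**Figure D2:**
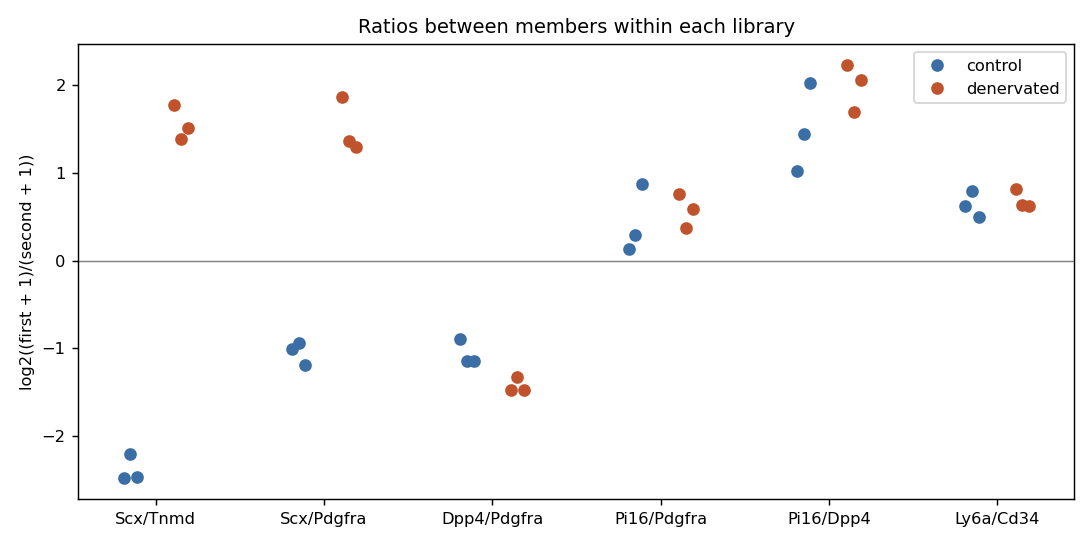
Log2 ratio of 2 marker genes within each library, each level plus 1, for 6 pairs, with 1 point per mouse. Scx/Tnmd and Scx/Pdgfra lie below 0 in every control and above 0 in every denervated mouse, while Pi16/Pdgfra, Pi16/Dpp4 and Ly6a/Cd34 overlap between groups.

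Other tendon genes went both ways, in a proportion that depended on the scaling. The list of tendon matrix and marker genes was chosen with earlier results of these data known. As deposited, 2 of its 17 tested members were higher, 5 lower and 10 not called. Over all genes tested 22.9% were higher and 24.3% lower. The median log2 difference of the list was -0.23 against -0.01 over all genes tested. Kera, keratocan of the cornea and tendon, fell from 6.54 ± 1.16 to 1.80 ± 0.253, and Angptl7, an angiopoietin-like protein, from 22.2 ± 6.01 to 8.87 ± 0.177. Cilp, a cartilage and tendon matrix protein, rose from 2.24 ± 0.198 to 9.77 ± 1.97. The limma adjusted p was 9.28e-05 for Kera, 0.000724 for Angptl7 and 4.96e-05 for Cilp, and the 3 mice of each group did not overlap for these genes. With equal nuclear protein-coding totals 3 were higher and 3 lower, and equal protein-coding totals gave 7 higher and 1 lower. The list median then stood at 0.05 and 0.34, below the 0.32 and 0.61 of all genes.

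Tendon genes tended to be highest in 1 of the 3 control libraries. Control 1 had the highest of the 3 control values for 15 of the 17 tested tendon matrix genes, and for Scx, Tnmd and Mkx as well. Over all tested genes control 1 was highest in 32%. The trait was not particular to tendon genes, since control 1 was also highest in 7 of the 9 collagens and for Pdgfra and Dpp4. Pi16 was highest in control 3, and Cd34 and Ly6a in control 2. Without control 1 the tendon matrix list had 3 higher and 5 lower members and a median of -0.10, so its median rests in part on that library. Control 1 was also the highest control for 5 of 5 tested adipocyte markers and 5 of 5 tested blood and skin markers, whose sums in controls ran from 96.3 to 120 and from 32.9 to 483. The part of such tissue in the tendon values was not tested.

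**Figure D3:**
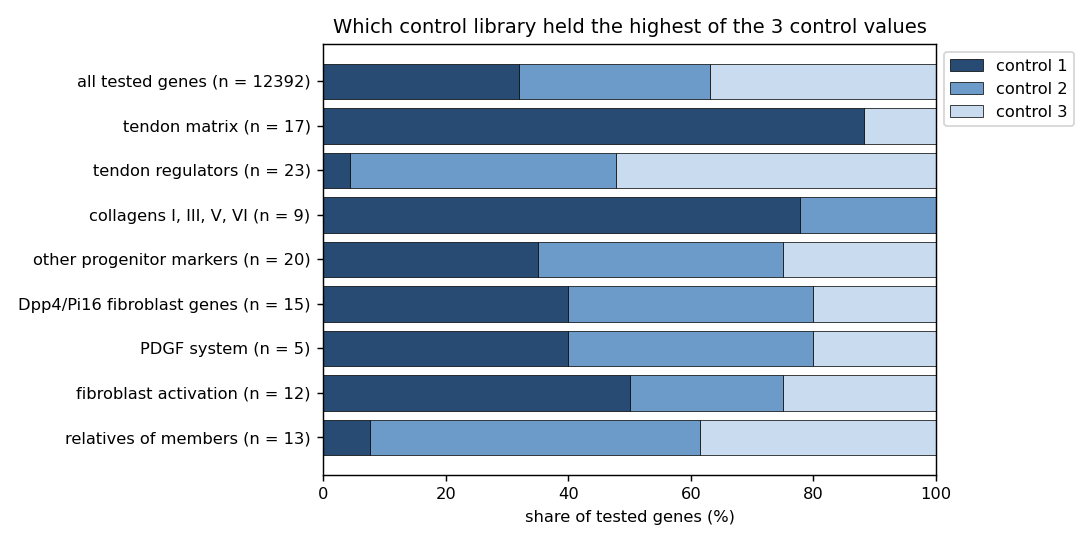
Share of tested genes (%) in which control 1, 2 or 3 held the highest of the 3 control values, for all tested genes and for each of the 8 gene lists. Control 1 is highest in 15 of 17 tendon matrix genes and in 1 of 23 tendon regulators, against 32% of all tested genes.

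Collagen genes of types I, III, V and VI, the bulk of tendon and muscle connective tissue matrix, were lower in all 9 tested members with values as deposited. The type I collagen genes Col1a1 and Col1a2, known targets of scleraxis, fell from 127 ± 23.6 to 44.5 ± 9.82 and from 130 ± 18.8 to 45.4 ± 6.14. Col6a2, a chain of the beaded filaments around fibres, fell from 11.4 ± 1.75 to 4.75 ± 0.724. Their limma adjusted p was 0.00045, 9.74e-05 and 0.000463. The median of the 9 was -0.67, against -0.01 over all genes tested, of which 24.3% were lower. It turned to 0.11 with equal protein-coding totals, below the 0.61 of all genes, and 3 members were then higher and 2 lower. With control 1 left out 8 of the 9 were called lower.

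Many genes that regulate tendon cells, among them partners of scleraxis and signals that induce it, were higher. Of 23 tested members 4 were below 0.5 in every control (Egr2, Sox9, Gdf5 and Gdf6) and passed the level filter through the denervated group, so they had to differ. Of the other 19, 13 were higher, 2 lower and 4 not called, with a median of 0.63. The shares over all genes tested were 22.9% higher and 24.3% lower, with a median of -0.01. Gdf5, a growth and differentiation factor of joints and tendon, went from 0.189 ± 0.0444 to 7.07 ± 1.16 (log2 difference 2.75). It stood at 0.202, 0.140 and 0.226 in controls. Its limma adjusted p of 3.22e-06 is no support, since Gdf5 was tested only because of its denervated values. Tgfbr1, a receptor of transforming growth factor beta, the signal known to induce Scx in tendon progenitors, rose from 3.29 ± 0.0952 to 17.8 ± 3.25 (limma adjusted p = 1.19e-05). Mstn, myostatin, which is made by muscle fibres and in mouse supports Scx and Tnmd expression, fell from 12.5 ± 2.93 to 1.74 ± 0.149 (limma adjusted p = 1.95e-05). Many of these genes are expressed in fibres and other cells, so the list does not report on tendon cells alone.

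Pdgfra, the receptor that defines fibro-adipogenic progenitors, did not pass the test with values as deposited. Its levels were 2.51, 2.10 and 2.03 in controls 1 to 3 and 2.44, 2.64 and 2.47 in denervated mice 1 to 3. The highest control lay within the denervated range. The log2 difference was 0.13 (SE 0.0952, limma adjusted p = 0.289). This call depended on the scaling. With equal totals of nuclear protein-coding genes the difference was 0.47 (adjusted p = 0.00459), and with equal totals of all protein-coding genes 0.77 (adjusted p = 0.000168), where the median of all genes was 0.32 and 0.61.

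The ligands and the sister receptor of Pdgfra were mostly lower as deposited. Of 5 tested members of the PDGF system 4 were lower and 1 was not called, with a median of -0.43. Among all genes tested 24.3% were lower, and the median was -0.01. Pdgfrl, 1 of the 4, was below 0.5 in every denervated mouse and passed the level filter through the controls. Pdgfa, a ligand of the alpha receptor, fell from 9.66 ± 0.920 to 5.27 ± 0.916 and Pdgfb, a ligand of both receptors, from 4.74 ± 0.122 to 2.16 ± 0.410. Pdgfrb, the beta receptor of pericytes and fibroblasts, fell from 7.42 ± 0.283 to 5.26 ± 0.697. The limma adjusted p was 0.00178, 0.000499 and 0.0112. With equal protein-coding totals Pdgfa and Pdgfrb turned to 0.013 and 0.34 and the list median to 0.013, with 1 higher and 0 lower. The median of all genes was then 0.61.

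Dpp4, a surface peptidase, was the lowest of the progenitor markers. It stood at 0.894, 0.398 and 0.372 in controls and at 0.234, 0.453 and 0.246 in denervated mice. Control 1 was the highest value, and the other values overlapped between groups. It reached 0.5 in 1 library only and was not tested; with no level filter its log2 difference of -0.23 had a limma adjusted p of 0.306. Without control 1 the difference was -0.083, so its size rests on that library. Relative to Pdgfra in the same library, Dpp4 stood at 0.356, 0.190 and 0.183 in controls and at 0.0958, 0.172 and 0.0997 in denervated mice (exact permutation p = 0.1 on the ratio of levels plus 1, 0.2 adjusted over the 6 ratios). The log2 ratio of Pi16 to Dpp4, each level plus 1, differed by 0.50 between groups and by 0.27 without control 1.

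Pi16, a secreted peptidase inhibitor family protein of the same fibroblasts, was not called as deposited. Its levels were 2.85, 2.79 and 4.57 in controls 1 to 3 and 4.81, 3.72 and 4.21 in denervated mice 1 to 3. Control 3 lay within the denervated range, and the other controls lay below it. The log2 difference was 0.27 (SE 0.166, limma adjusted p = 0.217). Without control 3 it was 0.45 (limma adjusted p = 0.0252), so the call depended on this library. It depended on the scaling too. With equal nuclear protein-coding totals the difference was 0.65, and with equal protein-coding totals 0.98 (limma adjusted p = 0.00716 and 0.000697). The median of all genes was then 0.32 and 0.61. The ratio of Pi16 to Pdgfra overlapped between groups (exact permutation p = 0.7 on the ratio of levels plus 1).

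Other genes of the Dpp4 and Pi16 positive fibroblasts were lower or not called with values as deposited. Of 15 tested members 0 were higher, 9 lower and 6 not called, with a median of -0.49. Over all genes tested 22.9% were higher and 24.3% lower, and the median was -0.01. Pcsk6, a proprotein convertase, fell from 5.11 ± 0.735 to 1.96 ± 0.0792 (limma adjusted p = 0.000198), and Cxcr7, a scavenger receptor of the chemokine Cxcl12, from 6.74 ± 1.08 to 2.75 ± 0.493 (limma adjusted p = 0.000633). Mfap5, a microfibril protein, went from 7.69 ± 2.06 to 4.74 ± 0.479, and its call (limma adjusted p = 0.0279) was lost on leaving out any library but control 1. Cd55 and Sema3c, which also mark this subset and were named after their values were seen, stood at 10.2 ± 0.423 and 6.30 ± 0.252 in controls and at 10.3 ± 0.423 and 6.30 ± 0.874 after denervation. With equal protein-coding totals the list median turned to 0.21, below the 0.61 of all genes, with 4 higher and 1 lower.

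Cd34 and Ly6a, the surface markers shared with endothelium, were the most abundant of the 8 genes in controls and fell to a like degree as deposited. Cd34, a sialomucin, stood at 15.5, 17.3 and 15.7 in controls and at 10.1, 9.55 and 10.4 in denervated mice. Its groups lay well apart, and the log2 difference was -0.64 (SE 0.0856, limma adjusted p = 0.00063). Ly6a, a membrane protein anchored by lipid, stood at 24.4, 30.8 and 22.5 in controls and at 18.6, 15.4 and 16.5 in denervated mice. Its groups did not overlap either, and the log2 difference was -0.59 (SE 0.131, limma adjusted p = 0.00787). The ratio of Ly6a to Cd34 was 1.58, 1.78 and 1.43 in controls and 1.84, 1.61 and 1.59 in denervated mice, which overlap. The exact permutation test gave p = 0.6 on the log2 ratio of levels plus 1, and p = 0.4 with 0.01 in place of 1.

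The falls of Cd34 and Ly6a depended on the scaling. With equal nuclear protein-coding totals neither was called, at -0.19 and -0.13 (adjusted p = 0.0975 and 0.451), and with equal totals of all protein-coding genes they turned to 0.19 and 0.27 (adjusted p = 0.0781 and 0.102). Under both scalings they stayed below the median of all genes, at 0.32 and 0.61. Endothelial markers moved with them as deposited, with 10 of 12 lower and 1 higher, against 24.3% lower and 22.9% higher over all genes tested. The sum of the 12 was 123 to 133 in controls and 74.2 to 78.0 after denervation, none was at 0, and as deposited Pecam1, a junction protein of endothelium, fell from 15.4 ± 0.624 to 8.69 ± 0.391. The endothelial list turned too with equal protein-coding totals, to 3 higher and 3 lower and a median of 0.02. Of 9 tested satellite cell markers, a list that holds Cd34, 4 were higher and 3 lower, with sums of 38.9 to 42.8 and 55.4 to 64.7. The part of endothelium in the fall of either gene was not tested.

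**Figure D4:**
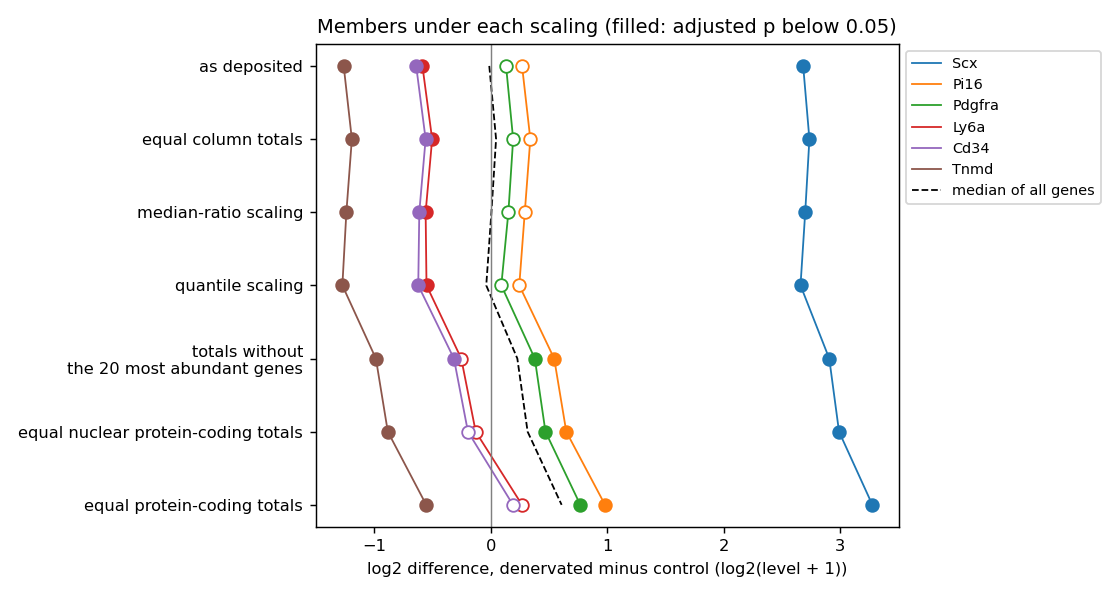
Log2 difference, denervated minus control, of the 6 tested marker genes under 7 scalings of the libraries, with the median of all genes as a dashed line. Filled points have a limma adjusted p below 0.05. Scx stays between 2.66 and 3.28 and Tnmd between -1.27 and -0.55, whereas Cd34 and Ly6a cross 0 and Pdgfra and Pi16 become called.

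Of the 6 tested markers, only Scx and Tnmd kept both their direction and their call under all 6 other scalings. Scx ranged from 2.66 with quantile scaling to 3.28 with equal protein-coding totals, and Tnmd from -1.27 to -0.55. The call of Scx is no support under any scaling, since the level filter needed its denervated values. Pdgfra and Pi16 were called higher under 3 of the 6 scalings and Ly6a lost its call under the same 3, those that set totals equal after leaving out abundant or non-coding RNA.

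Further markers of fibro-adipogenic progenitors also went both ways. As deposited, 3 of 20 tested members were higher, 10 lower and 7 not called, with a median of -0.27. All genes tested were higher in 22.9% and lower in 24.3%, with a median of -0.01. Pdgfrl and Nt5e, both lower, were below 0.5 in every denervated mouse and passed the level filter through the controls. Without the 20 most abundant genes in the totals 6 were higher and 4 lower (median -0.02). Equal nuclear protein-coding totals gave 6 and 3 (median 0.08), and equal protein-coding totals 12 and 1 (median 0.39). The median of all genes under these scalings was 0.23, 0.32 and 0.61, so the list median stayed below it. With equal protein-coding totals 9036 of all 12392 genes tested were higher. Lpl, lipoprotein lipase, which fibres also express, fell from 84.9 ± 7.54 to 25.1 ± 1.09 (limma adjusted p = 7.71e-06). Col15a1, a basement membrane collagen, fell from 9.79 ± 2.08 to 4.31 ± 0.404 (limma adjusted p = 0.00123). Apod, a lipid carrier of fibroblasts and nerve, rose from 15.2 ± 1.36 to 40.9 ± 2.68 (limma adjusted p = 2.64e-05). Leaving out control 1 gave 2 higher and 6 lower.

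Among genes tied to fibroblast activation, Runx1 and Timp1 had the 2 largest log2 differences of the 8 lists. Both needed their denervated values to pass the level filter, so this ranking is no support for a rise. Of 12 tested members, Timp1 and Sfrp2 were below 0.5 in every control and passed the level filter through the denervated group. Of the other 10, which still hold Runx1 among the higher ones, 4 were higher, 3 lower and 3 not called, with a median of 0.25. Over all genes tested 22.9% were higher and 24.3% lower, with a median of -0.01. Timp1, which blocks matrix metalloproteinases, rose from 0.191 ± 0.0782 to 19.3 ± 8.89, and Lox, a collagen cross-linking enzyme, from 2.75 ± 0.484 to 11.6 ± 2.58. Runx1, a transcription factor that denervated fibres themselves are known to express, rose from 0.330 ± 0.155 to 34.0 ± 1.99. The limma adjusted p was 0.000117 for Lox. It was 4.69e-05 for Timp1 and 2.75e-07 for Runx1, which is no support, since both needed the denervated group to be tested. The 3 lower members were Acta2 and Tagln, which smooth muscle also expresses, and Loxl2. These 3 were named after their values were seen. Runx1 was below 0.5 in 2 controls and also needed the denervated group to pass the filter.

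Relatives of the marker genes were mostly lower or not called as deposited. Of 13 tested members 1 was higher, 6 lower and 6 not called, with a median of -0.28. Among all genes tested 22.9% were higher and 24.3% lower, with a median of -0.01. Crispld2, which shares the secretory protein domain of Pi16, fell from 5.87 ± 0.155 to 3.06 ± 0.366 (limma adjusted p = 0.00046). Podxl2, a sialomucin related to Cd34, fell from 9.34 ± 1.01 to 5.47 ± 1.46 (limma adjusted p = 0.00976). Glipr1, another relative of Pi16, rose from 1.51 ± 1.11 to 3.91 ± 0.604 (limma adjusted p = 0.0149), a call lost without denervated 2 (adjusted p = 0.0509). Ly6c1, a neighbour of Ly6a in the same family and named after its values were seen, went from 64.8 ± 4.69 to 43.7 ± 3.70. With equal protein-coding totals the balance turned to 6 higher and 0 lower, with a median of 0.34. With equal nuclear protein-coding totals it was 2 higher and 1 lower, with a median of 0.005. The median of all genes was 0.61 and 0.32 under these scalings, with 9036 and 6013 of 12392 genes higher.

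**Figure D5:**
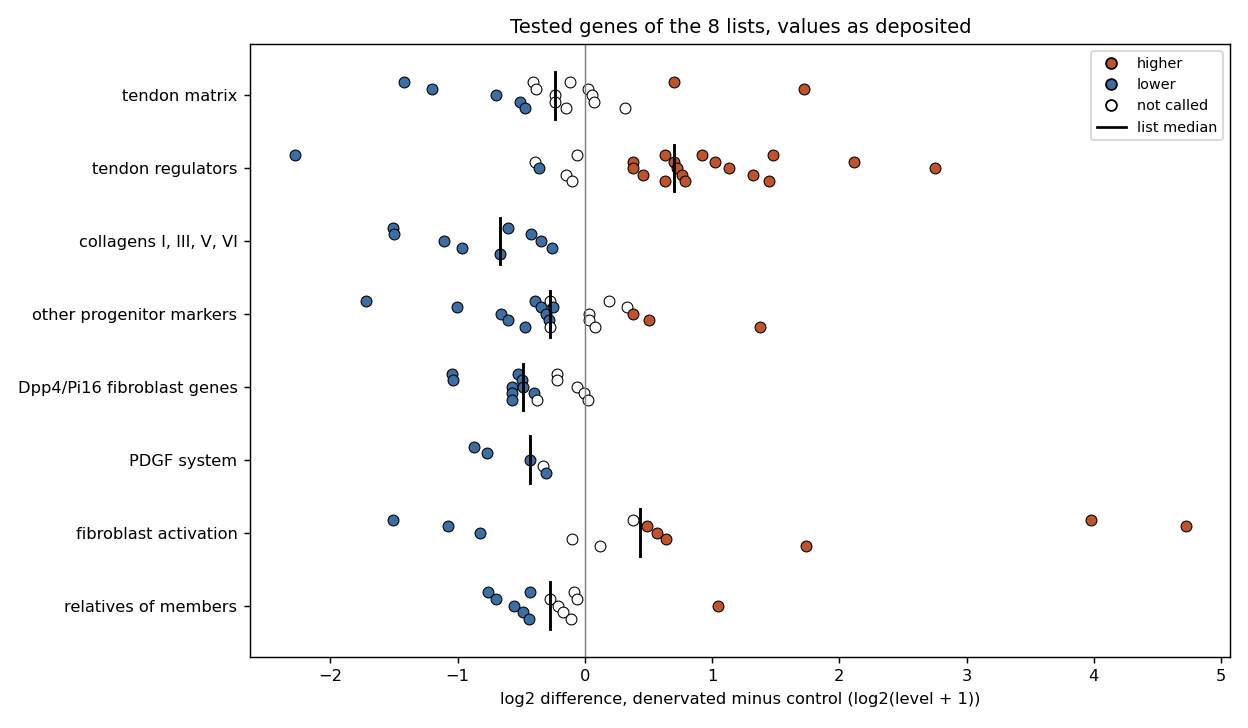
Log2 difference, denervated minus control, of each tested gene in the 8 lists with values as deposited; colour gives the limma call and the bar the list median. All 9 collagens lie to the left of 0; of the tendon regulators, Egr2, Sox9, Gdf5 and Gdf6 are placed to the right by the level filter, and 13 of the other 19 were called higher.

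Since levels are corrected for gene length, the 8 genes can be ordered within a group. In controls the order was Ly6a (25.9 ± 4.35), Cd34 (16.2 ± 1.01), Tnmd (7.18 ± 1.36), Pi16 (3.40 ± 1.01) and Pdgfra (2.21 ± 0.261), with no overlap between neighbours. Mkx, Scx and Dpp4 followed at 0.564, 0.561 and 0.555 and overlapped each other. After denervation Scx (9.11 ± 2.14) stood behind Ly6a (16.8 ± 1.59) and Cd34 (10.03 ± 0.438) and overlapped Cd34. Pi16 (4.24 ± 0.546) came next, then Pdgfra (2.52 ± 0.105) and Tnmd (2.40 ± 0.377), which overlapped, and Mkx (0.442 ± 0.040) and Dpp4 (0.311 ± 0.123), which overlapped too.

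Genes with the pattern most like each tested marker were found by Pearson correlation of log2(level + 1) over the 6 libraries among 10369 genes with a mean level of 1 or more. Cgref1 (r = 0.9994), Rpl13a (0.999) and Tuba1b (0.999) were closest to Scx. Cgref1 stood at 1.24 ± 0.205 and 6.51 ± 0.883. Among the closest to Tnmd were 2210418O10Rik and B230118H07Rik (r = 0.9997 and 0.996), and closest to Cd34 were Ano6, Thra and Nr3c2 (0.9994, 0.999 and 0.998). For Ly6a they were Vgll4, Cmklr1 and 1110005A03Rik (each 0.988), for Pdgfra Rrp8, Smc1a and Cdk18 (0.983, 0.982 and 0.978), and for Pi16 Vps72, snoU89 and Gm8909 (0.982, 0.979 and 0.969). With 6 libraries in 2 groups such values mainly follow the difference between the groups, and among this many genes high values arise readily.

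The tissue and its other cells were checked with marker lists. All 8 fibre markers were abundant, with a sum of 29644 to 33758 in controls and 10156 to 12315 after denervation. The 8 tenocyte markers, Scx, Tnmd and Mkx among them, summed to 75.6 to 104 and 57.3 to 66.1, and the 10 progenitor markers to 341 to 364 and 235 to 270. As deposited, 7 of the 8 fibre markers were lower and 1 higher. The background for each such count is 22.9% higher and 24.3% lower over all genes tested. Pericyte and smooth muscle markers were lower in 9 of 10 tested, with sums of 155 to 165 and 74.6 to 80.3. With equal nuclear protein-coding totals 1 was higher and 4 lower, and equal protein-coding totals gave 3 higher and 3 lower. Their median was then -0.20 and 0.11, against 0.32 and 0.61 for all genes. Macrophage markers were higher in 7 of 10 tested, with sums of 19.0 to 22.4 and 55.1 to 62.6; Ccr2, 1 of the 7, was below 0.5 in every control. Adipocyte markers were higher in 4 of 5 tested and lower in 1, but their sum was lower, at 96.3 to 120 and 50.2 to 64.0. Fabp4, a fatty acid carrier also found in endothelium, dominated the denervated sum. Schwann cell and nerve markers were higher in 2 of 7 tested and lower in 3, with sums of 22.4 to 25.7 and 11.2 to 12.3, and 2 of the 7 were below 0.5 in every denervated mouse. Of 5 tested blood and skin markers 1 was lower, with sums of 32.9 to 483 and 106 to 203 and with Krt5 listed at 0 in controls. None of 8 lymphocyte markers passed the filter (0 tested), with sums of 0.255 to 0.395 and 1.00 to 1.42, and Cd3d and Ms4a1 were listed at 0 in controls. Of the cartilage and bone markers only Col10a1 was tested and was higher, with sums of the 7 in the table of 0.903 to 4.02 and 2.34 to 7.15, and Ibsp was listed at 0 in controls. The part of these cells in the results was not tested.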

How the data were processed

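Per the labels, total RNA of whole muscle from separate mice was sequenced with paired-end reads of 50 bp. The submitters' processing notes name Bowtie2 2.2.9, RSEM 1.3.0 and edgeR 3.12.1, and as build NCBIM37, with no role; no source used here gives filters or strandedness. The authors deposited 1 signal per gene and library, whose unit was read from the values: between 99.99 and 100% of the low values lie on a grid set by 1 factor per library (0.977 to 1.13), as TPM multiplied by that factor would. Such values keep no read number, so precision is that of 3 mice per group.

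Values as deposited were analysed as log2(level + 1) with limma 3.58.1 in R 4.3.3 (intensity trend, 4 residual degrees of freedom, two-sided) and tested on simulated data. Genes at 0.5 or more in at least 3 libraries were tested. Ratios between marker genes were compared with exact permutation tests in scipy 1.17.1. The marker genes, the 8 gene lists and the 12 lists of cell type markers were chosen with earlier results of these data known. Genes were named by rule: the markers, 3 per list by size of change among called genes, and 3 per tested marker by likeness, of which 1 is not reported here; others are said to be named after their values were seen. Alternatives were 6 scalings, 2 filters, 2 pseudocounts, 2 variance models, a replicate block and leaving out each library. Gene overlaps come from GENCODE M21 on GRCm38 and promoters from RefSeq on GRCm38.p6, not the build of the table.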

Additional observations from a re-analysis of the deposited data

How the results depend on the processing

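For the 31 genes here with a limma test, 552 of 589 alternative values kept direction and side of the threshold. A further 24 kept direction but lost the call, 7 kept direction and gained the call, and 6 reversed direction. Of those 6, all with equal protein-coding totals, only Pdgfrb was called (limma adjusted p = 0.0189). The 6 ratios could not pass a threshold in this design. Genes called higher and lower (2840 and 3017) became 4966 and 1614 with totals without the 20 most abundant genes, 6013 and 1271 with equal nuclear protein-coding totals, and 9036 and 668 with equal protein-coding totals. Under the same 3 scalings Pdgfra stood at 0.38, 0.47 and 0.77 and Pi16 at 0.55, 0.65 and 0.98 (all called), Ly6a at -0.25, -0.13 and 0.27 (not called) and Mkx at 0.00041, 0.043 and 0.19. Cd34 stood at -0.19 and 0.19 under the last 2, and Dpp4 at 0.025 under the last, where Mfap5, Pdgfa, Pdgfrb and Podxl2 turned positive (0.19, 0.013, 0.34 and 0.089). These scalings bring the median of all genes to 0.23, 0.32 and 0.61. Pseudocounts of 0.1 and 0.01 gave Mkx -0.29 and -0.34 and Dpp4 -0.62 and -0.76. Leaving out 1 library gave Pi16 0.17 to 0.45, the ratio Pi16/Pdgfra -0.013 to 0.36 and Ly6a/Cd34 -0.019 to 0.13, and 2390 to 2556 higher and 2456 to 2742 lower genes. Apart from the scalings' construction, the cause was not tested.

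Replicate numbers are shared between groups and were not used to pair the mice in the main fit. Deviations of same-numbered libraries correlated at -0.0068, -0.099 and 0.019. Those of differently numbered libraries ran from -0.13 to 0.12, so these values cannot decide whether mice were paired. With the replicate block 2636 genes were higher and 2772 lower, and no call of a marker gene changed (Scx adjusted p = 6.71e-05, limma). Unknown depth limits Dpp4, Mkx and the control level of Scx. The planned tests for counts were not run, since the values are not counts.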
